A study of Mus musculus with 4 samples.

Results

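The 10 genes described here belong to the vessel wall and were followed in mouse ventricle with and without the channel Trpc6, chosen by symbol: the smooth muscle genes Myh11, Tagln, Cnn1, Smtn, Mylk, Lmod1 and Myocd and the pericyte genes Notch3, Pdgfrb and Cspg4. They were read by 11 probes, 1 per gene and a second for Smtn, out of 20690 probes that stand for 19321 named genes. The samples were ventricular muscle of male 129SV mice, 2 wild type (WT) and 2 TRPC6 knockout (Trpc6-/-), each read on 1 Cy5 array. The labels give no age, do not say how the deletion was made or in which cells, and number the samples without saying that they came from separate animals, so that the p-values below reflect how these samples vary, and that variation may be technical. The comparison asks which of these transcripts differ in the ventricle when the channel is deleted.

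Smooth muscle cells and pericytes, together called mural cells, wrap arteries and capillaries and are a small part of ventricular tissue beside cardiomyocytes. Smooth muscle contracts when calcium and calmodulin activate myosin light chain kinase, and its contractile genes are switched on by serum response factor with the cofactor myocardin. Mural cells are recruited to vessels by PDGF-B acting on its receptor and kept mature by Notch3. TRPC6 is a calcium-permeable cation channel known in vascular smooth muscle as well as in cardiomyocytes. In RNA of whole ventricle, fewer cells of a type and less RNA per cell cannot be told apart.

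No member differed between the genotypes past the test. With limma across all 15955 genes tested, 0 members and 0 genes (0%) had a Benjamini-Hochberg adjusted p under 0.05. At an unadjusted limma p under 0.05 stood 1 member, Myocd, and 1076 genes, or 6.74% of those tested (3.67% higher and 3.08% lower in the knockout). Myocd was higher. The log2 difference, knockout minus wild type, was above 0 in 5 members and below 0 in 5, with a median of 0.015, beside 51.1% of all genes above 0 and a median of 0.0017. The groups did not overlap in 4 members, of which 3 were higher and 1 was lower in the knockout. Over all genes they did not overlap in 36.8%, with 19.4% higher and 17.4% lower. The median size of the difference was 0.040 over the members and 0.043 over all genes, so that the members lay close to the background in each of these measures.

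The members were dim on these arrays, as were many gene probes, which bears on every value below. A probe was called detected when its spot was brighter than the 95th percentile of the 480 blank and negative control spots of the same array, which was 80.8 and 91.5 units on wild-type arrays 1 and 2 and 85.5 and 83.3 units on knockout arrays 1 and 2. All 11 member probes were detected on all 4 arrays, where 76.3% to 83.2% of gene probes were, and no member was lost to the filter. Tagln, Smtn and Pdgfrb stood at 1.56 to 2.29 times the threshold. The other 7 stood at 1.02 to 1.33 times, close above it. The median of all gene probes was also close above the threshold. It was 95.5 and 106 units on wild-type arrays 1 and 2 and 97.7 and 97.1 units on knockout arrays 1 and 2. Low signal was therefore not particular to the members. On single arrays up to 8 of the 480 control spots were brighter than the Notch3 probe and up to 3 were brighter than that of Lmod1, while none was brighter than the best probe of the other 8 members on any array. Among markers of ventricular cardiomyocytes 10 of 10 were kept. The sum of their normalized intensities was 215848 to 219865 units for wild-type arrays against 221570 to 226997 for knockout arrays. Quantile normalization gives the brightest probes the same set of values on every array. Actc1, Myl2 and Tnnt2 only exchanged 15.51, 15.37 and 15.25 between them. A large part of these sums was therefore equal by construction, and their ranges do not measure a difference between genotypes.

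**Figure D1:**
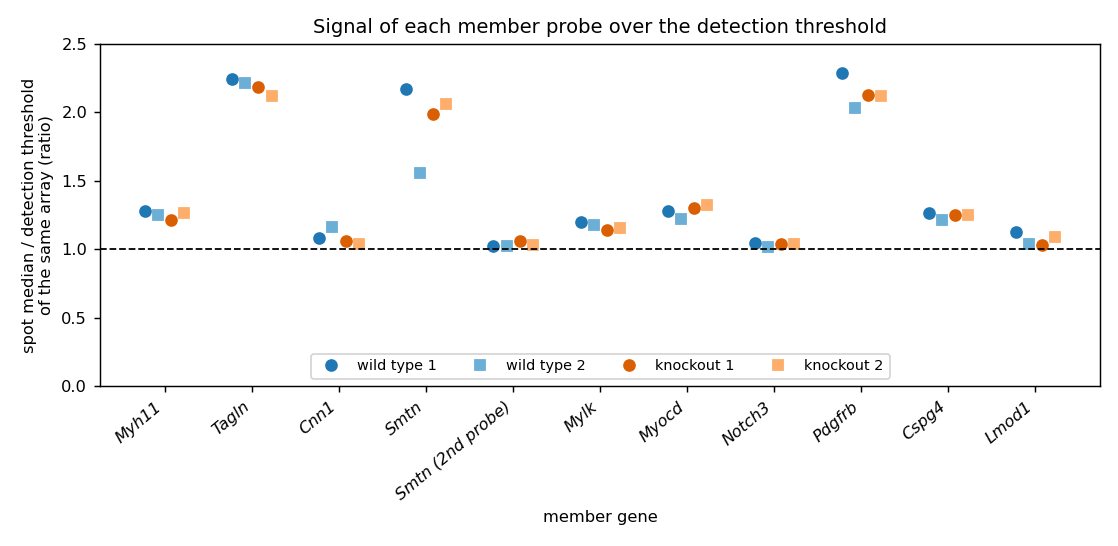
The spot median of each member probe divided by the detection threshold of its array (vertical axis, a ratio) is plotted for the 11 probes (horizontal axis), with 1 point per array and the dashed line at the threshold. All points lie above the line; Tagln, Pdgfrb and the brighter Smtn probe reach 1.56 to 2.29, and the other members stay between 1.02 and 1.33.

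The targeted gene could not check the genotype labels, because the single Trpc6 probe was detected on 0 of 4 arrays, at 80.5 and 89.2 units in wild type against 84.1 and 82.6 in the knockout. The arrays correlated with each other at 0.993 to 0.997 in log2 values across genes, and no pair held the same values throughout. Hbb-bt, a beta-globin gene, was low on wild-type array 1, at 7.01 against 8.19 on wild-type array 2 and 8.49 and 8.59 on the knockout arrays. Below, normalized log2 intensities are listed in the order wild-type arrays 1 and 2, knockout arrays 1 and 2, group means carry their SD (n = 2 arrays), and differences are given ± the limma standard error. An offset of 50 units was added to each spot before log2, which shrinks the differences of dim probes, so the difference computed without an offset is given beside it for each member. An exact permutation of 2 against 2 arrays cannot give a two-sided p below 0.333.

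Among the contractile proteins, Myh11 and Tagln were the most even. Myh11 encodes smooth muscle myosin heavy chain, the motor that sets mature smooth muscle apart from other cells. Its spot medians were 103, 114, 104 and 106 units, and its normalized values 6.28, 6.28, 6.26 and 6.29. The knockout arrays lay on either side of both wild-type arrays, with a difference of -0.0030 ± 0.038 and a limma adjusted p of 0.991. Without an offset the difference was -0.0091, and its 95% interval ran from 0.806-fold to 1.23-fold, so a change within that range was not excluded. Tagln encodes transgelin (SM22-alpha), an actin-binding protein of the calponin family. It read 181, 203, 187 and 177 units and 7.28, 7.32, 7.36 and 7.24 after normalization. The knockout arrays held both the highest and the lowest value, and the difference was -0.0012 ± 0.055, with a limma adjusted p of 0.999 and without an offset it was -0.0025, with an interval of 0.799-fold to 1.25-fold. The sign of both differences turned under 75th percentile scaling and under subtraction of the local background.

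Cnn1 and Lmod1, also actin-binding proteins, lay nearer to background. Cnn1 encodes calponin 1, which binds actin and slows the myosin motor. Its spot medians were 87.7, 106, 90.9 and 87.0 units, which is 9.32, 18.7, 8.14 and 5.73 units above the blank median of the same array. After normalization it was at 5.96, 6.13, 5.96 and 5.89, so that wild-type array 2 stood above the other 3, and wild-type array 1 and knockout array 1 were alike. The difference was -0.12 ± 0.073, with a limma adjusted p of 0.805. It was -0.033 without wild-type array 2 and -0.205 without wild-type array 1, where the unadjusted limma p was 0.0241. Without an offset it was -0.55, or 0.682-fold, with an interval of 0.43-fold to 1.08-fold. In the table the authors deposited Cnn1 had 9.1, 14.9, 7.7 and 5.8 units, a mean of 12.0 in wild type and 6.75 in the knockout. On that table the log2 difference was -0.80 with an unadjusted limma p of 0.0297 and an adjusted p of 1. Lmod1, leiomodin 1, nucleates actin filaments in smooth muscle. It was at 6.03, 5.91, 5.89 and 5.99, with the highest value in wild type and the lowest in the knockout, and the groups crossed. Its difference of -0.033 ± 0.064 turned to 0.028 without wild-type array 1 and to 0.017 without knockout array 1. Without an offset it was -0.17, or 0.889-fold, with an interval of 0.567-fold to 1.39-fold.

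Smtn, which encodes the actin-associated protein smoothelin of contractile smooth muscle, had the widest spread of the 10. Its brighter probe read 176, 142, 170.0 and 172 units, or 7.23, 6.69, 7.19 and 7.19 after normalization. Wild-type array 2 stood 0.53 below wild-type array 1, whereas knockout array 2 minus knockout array 1 was -0.00050. The group means were 6.96 ± 0.38 in wild type and 7.19 ± 0.00036 in the knockout, and the difference of 0.23 ± 0.18 had a limma adjusted p of 0.856. Without wild-type array 2 it was -0.032, so that array alone carried the higher mean of the knockout. Without an offset the difference was 0.40, with an interval of 0.815-fold to 2.14-fold. The second Smtn probe read 83.1, 93.8, 90.8 and 86.0 units, at most 1.06 times the threshold, and was at 5.85, 5.88, 5.96 and 5.86. Here wild-type array 2 was not low, and up to 7 control spots of an array were brighter than this probe.

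**Figure D2:**
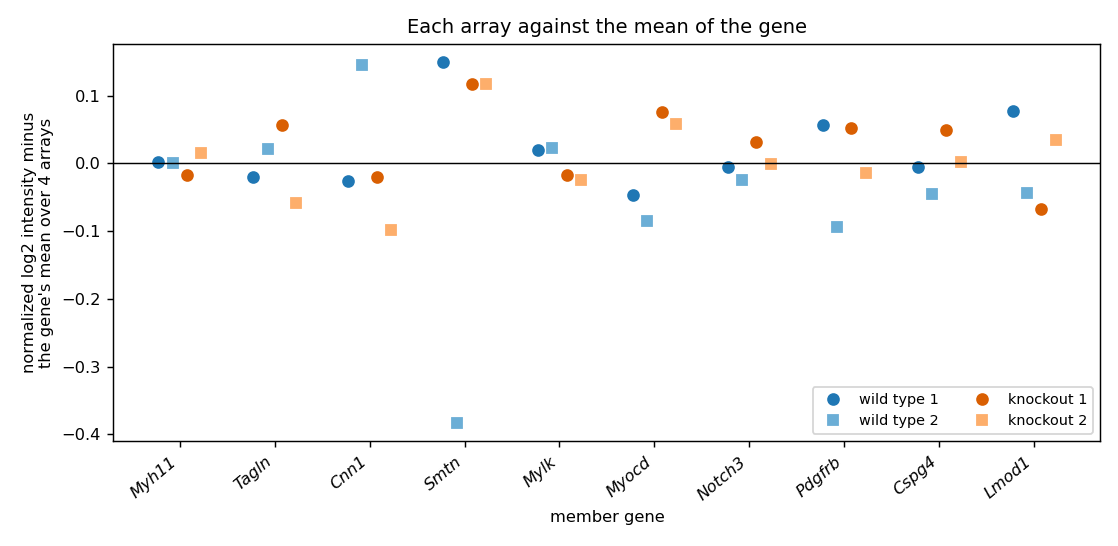
The normalized log2 intensity of each array minus the mean of the gene over the 4 arrays (vertical axis, log2 units) is plotted for the 10 members (horizontal axis), with blue for wild type and orange for knockout. Most points lie within 0.1 of 0; wild-type array 2 stands apart in Smtn and Cnn1, and Mylk, Myocd, Notch3 and Cspg4 are the members whose groups do not cross.

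Mylk encodes myosin light chain kinase, the enzyme that starts smooth muscle contraction. It was the 1 member without overlap that was lower in the knockout, at 6.15, 6.16, 6.12 and 6.11. The difference was -0.043 ± 0.037, or 0.971-fold, with a limma adjusted p of 0.869, although the 2 arrays of each group agreed closely, with SDs of 0.0017 and 0.0048. In limma the standard error of a gene also draws on the spread of the others, whose median within-group SD was 0.048. Without an offset the difference was -0.15, or 0.903-fold, with an interval of 0.735-fold to 1.11-fold, and on the authors' deposited table it was -0.22. The gene yields long and short kinases, and the sources used here do not say which part of the transcript the probe matches.

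Myocd, the cofactor that drives the contractile genes through serum response factor and is also made in cardiomyocytes, had the smallest p among the members. Its spot medians were 103, 112, 111 and 111 units, which is 24.9, 24.5, 28.5 and 29.3 units above the blank median. Normalized values were 6.28, 6.24, 6.40 and 6.38, and both knockout arrays lay above both wild-type arrays. The means were 6.26 ± 0.027 and 6.39 ± 0.012, a difference of 0.13 ± 0.039 or 1.10-fold, with an unadjusted limma p of 0.0238 and an adjusted p of 0.727. Without an offset the difference was 0.35, or 1.28-fold, with an interval of 1.03-fold to 1.58-fold and an adjusted p of 0.839. The sign of the difference cannot turn under a change of filter, probe choice, variance model or replicate term, which leave the difference as it is. Nor can it turn without 1 array, because the groups do not overlap. Under all 15 alternatives the difference was above 0, from 0.067 with the local background subtracted to 0.38 on the authors' deposited table. Its unadjusted limma p was 0.326 and 0.124 there. It was also above 0.05 without wild-type array 2 (0.0823), knockout array 1 (0.115) and knockout array 2 (0.0855), and 0.0154 at the lowest. Of the smooth muscle members that myocardin is known to act on, Myh11, Tagln, Cnn1, Lmod1 and Mylk had differences below 0 and Smtn one above 0. None had an unadjusted limma p under 0.05. Those of Myh11 and Tagln were only -0.0030 and -0.0012. With the local background subtracted, Myh11, Tagln and Lmod1 turned above 0. A link of these genes to Myocd was not tested.

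Serum response factor binds the CArG box, a run of A and T bases between a pair of C and a pair of G. RefSeq windows of GRCm38.p6 from 250 bases before to 50 bases after the start were at hand for 6 of the 10 members: Cnn1, Smtn, Mylk, Notch3, Cspg4 and Lmod1. The full CArG box, searched on both strands, was in 0 of these 6 and in 1.63% of all 32851 windows. A CArG box with 1 of its 4 outer bases changed was in Lmod1 and Cspg4 and in 12.6% of all windows. The stretches that hold these matches are shown as the nearest form of the element in these windows, with the matched bases in capitals. A match is a description of the letters and not a binding site.
Lmod1, chr1:135324604-135324678, plus strand, positions -209 to -135 from the start: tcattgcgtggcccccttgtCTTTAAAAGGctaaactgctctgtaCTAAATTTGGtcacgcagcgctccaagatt
Cspg4, chr9:56864854-56864896, plus strand, positions -250 to -208 from the start, with overlapping matches: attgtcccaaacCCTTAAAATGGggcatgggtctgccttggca
The core TGGGAA, bound by the Notch effector RBPJ, was in the window of Smtn and in 25.6% of all windows. The core CATTCC, known as the MCAT element of TEAD factors, was in Smtn, Mylk and Lmod1 and in 14.7% of all windows, both searched on both strands.

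The pericyte members had higher means in the knockout, none past the test. Notch3, the receptor whose signalling keeps mural cells of small arteries mature, read 84.4, 93.0, 89.2 and 86.9 units, only 5.49 to 6.39 units above the blank median. It was at 5.88, 5.86, 5.92 and 5.88, and the groups did not cross, although knockout array 2 exceeded wild-type array 1 by 0.0044 only. The difference of 0.030 ± 0.039 had a limma adjusted p of 0.918, and without an offset it was 0.20, or 1.15-fold, with an interval of 0.904-fold to 1.45-fold. Cspg4, the proteoglycan NG2 on the pericyte surface, was at 6.26, 6.22, 6.31 and 6.26, and knockout array 2 exceeded wild-type array 1 by 0.0063. Its difference was 0.051 ± 0.042, with a limma adjusted p of 0.866, and without an offset 0.15 with an interval of 0.885-fold to 1.38-fold. Without knockout array 1 the differences were 0.014 for Notch3 and 0.027 for Cspg4. These separations of the normalized values were smaller than the within-group SDs of 0.019 for Notch3 and 0.032 for Cspg4.

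Pdgfrb encodes the receptor for PDGF-B and also marks fibroblasts to a degree. It read 185, 186, 182 and 177 units and was at 7.31, 7.16, 7.31 and 7.24, with wild-type array 1 highest, wild-type array 2 lowest and both knockout arrays between them. The difference was 0.037 ± 0.066, with a limma adjusted p of 0.945, and without an offset 0.057, with an interval of 0.82-fold to 1.32-fold. The local background around its spot was 125, 97.6, 153 and 136 units, higher on both knockout arrays. With that background subtracted the difference was -0.42, with an unadjusted limma p of 0.0330 and an adjusted p of 0.568. Pdgfrb was the only one of the 10 members with an unadjusted limma p under 0.05 at this setting, where 8.09% of all genes had one. The difference also turned to -0.038 without wild-type array 2, and it was 0.0046 with median scaling. The direction of Pdgfrb thus rests on the treatment of local background and on which arrays are included.

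**Figure D3:**
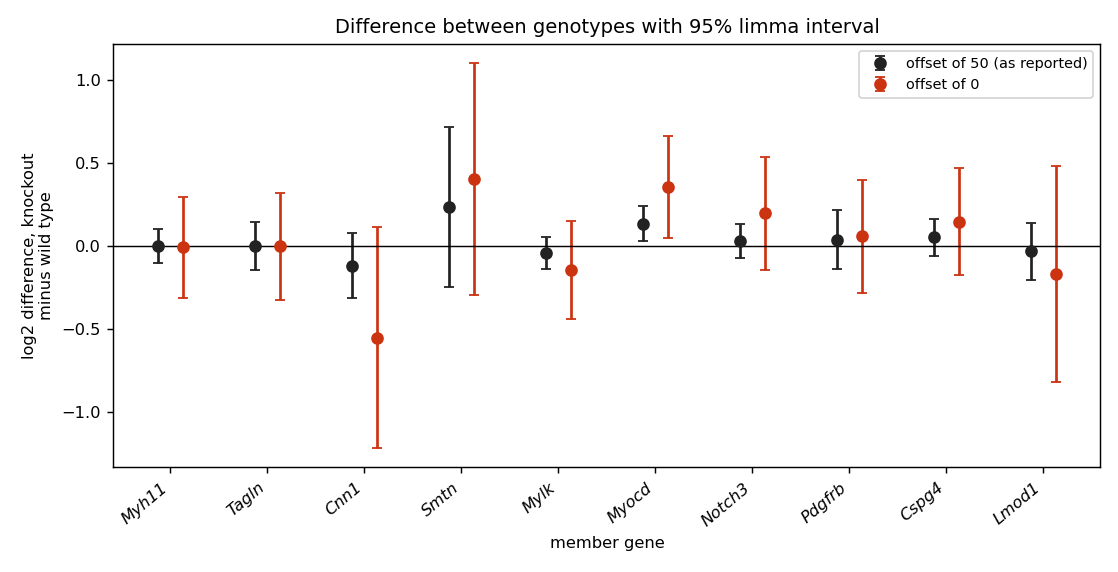
The log2 difference, knockout minus wild type, with its 95% limma interval (vertical axis) is plotted for the 10 members (horizontal axis), in black with the offset of 50 units and in red with an offset of 0. Removing the offset widens every interval, that of Cnn1 to between -1.22 and 0.11, and Myocd is the 1 member whose interval leaves out 0 in both.

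Changes between arrays of 1 genotype were of the size of those between genotypes. Between the wild-type arrays 7 of 10 were lower on array 2, and between the knockout arrays 8 of 10 were lower on array 2. The median size of these changes was 0.041 for each genotype, against 0.038 to 0.079 for the pairs of arrays of different genotype. Over all genes these medians were 0.061 and 0.049 within genotypes and 0.047 to 0.066 between them. Both pairs with wild-type array 2 gave the larger values, 0.076 and 0.079.

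Beside the counts of each group of genes below stand 51.1% of all genes above 0 and 6.74% at an unadjusted limma p under 0.05. Other contractile and cytoskeletal genes of smooth muscle were measured for 19 of 20 entries, with 8 above 0 and 11 below 0. They had a median of -0.0033 and 1 gene at an unadjusted limma p under 0.05. The median was 0.042 without wild-type array 1. Several of them, such as Des and Vcl, are also made in cardiomyocytes. Acta2, smooth muscle alpha-actin, was at 10.38, 10.25, 10.86 and 10.40. Both knockout arrays were above both wild-type arrays, array 2 by 0.015 only over wild-type array 1. The difference of 0.31 ± 0.17 had a limma adjusted p of 0.780 and was 0.079 without knockout array 1. Tagln2, transgelin 2, which is widely expressed, was at 7.89, 7.96, 8.05 and 8.06, a difference of 0.13 ± 0.044 with an unadjusted limma p of 0.0368. Cnn3, acidic calponin, and Des, desmin, had differences of -0.084 ± 0.060 and -0.093 ± 0.12. Without 1 array in turn they ran from -0.13 to -0.034 and from -0.25 to 0.068. Relatives of the members by gene family (Cnn2, Cnn3, Tagln2, Smtnl2, Lmod2, Lmod3, Mylk2, Mylk3, Mylk4, Notch1, Notch2, Notch4 and Pdgfra) ran from -0.12 to 0.16, with 4 of 13 above 0 and Tagln2 alone under 0.05.

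Other pericyte genes lay lower in 11 of 17, beside 7803 of all 15955 genes tested, with a median of -0.051. At an unadjusted limma p under 0.05 stood 2 lower and 0 higher, beside 3.08% and 3.67% of all genes. The median turned to 0.025 without wild-type array 1, with 7 of 17 lower. In 5 the knockout arrays were both below the wild-type arrays, and in 2 both above, beside 17.4% and 19.4% of all genes. Rgs5, a G protein regulator that marks pericytes, was at 8.45, 8.77, 8.55 and 8.28, a difference of -0.20 ± 0.15 that was -0.034 without wild-type array 2 and -0.060 without knockout array 2. Colec11, a collectin, was at 6.94, 6.91, 6.82 and 6.71, a difference of -0.16 ± 0.053 with an unadjusted limma p of 0.0333. Rgs4 was at 7.18, 7.44, 7.06 and 6.98, a difference of -0.29 ± 0.097 with an unadjusted p of 0.0342 by limma, and -0.16 without wild-type array 2. Anpep, aminopeptidase N, had one of -0.12 ± 0.049. Without knockout array 2 Colec11 was -0.11 and Anpep -0.068. None of these had a limma adjusted p below 0.727.

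In the pathway of myosin light chain phosphorylation 5 of 16 genes were above 0 and 11 below, with a median of -0.013 that was 0.0078 without knockout array 1. Ppp1r14a encodes CPI-17, an inhibitor of myosin phosphatase found mostly in smooth muscle. It was at 7.05, 7.12, 6.84 and 6.76, and both knockout arrays were below both wild-type arrays. The difference of -0.29 ± 0.052, or 0.818-fold, had an unadjusted limma p of 0.00365 and an adjusted p of 0.727. It ran from -0.33 to -0.25 without each array in turn and turned to 0.078 with the local background subtracted. Calm3, a calmodulin gene, was at 7.68, 7.65, 7.95 and 7.82, a difference of 0.22 ± 0.056 with an unadjusted limma p of 0.0137. Myl6, a myosin light chain of smooth muscle and other cells, had a difference of 0.15 ± 0.085, which was 0.052 without wild-type array 2 and 0.26 without wild-type array 1.

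**Figure D4:**
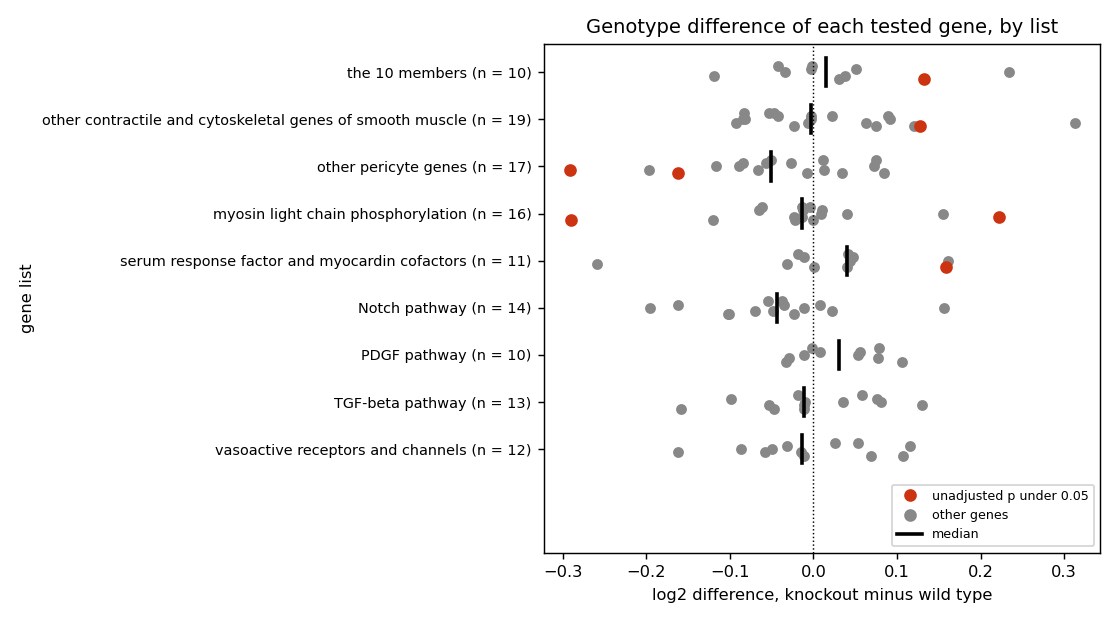
Each point is 1 tested gene, placed by its log2 difference, knockout minus wild type (horizontal axis), in the gene lists named on the vertical axis; bars mark the list medians and red points an unadjusted limma p under 0.05. The medians lie between -0.051 for other pericyte genes and 0.040 for serum response factor and its cofactors, and the red points fall on both sides of 0.

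The cofactors and partners of serum response factor had 7 of 11 genes above 0 and a median of 0.040, which was -0.017 without knockout array 2. Gata6, a transcription factor of heart and vessel, was at 8.69, 8.79, 8.88 and 8.92, a difference of 0.16 ± 0.053 with an unadjusted limma p of 0.0355, and 0.10 without wild-type array 1. Klf4, a repressor of contractile genes and an early response gene, was at 7.40, 7.86, 7.39 and 7.36, and its difference of -0.26 ± 0.16 was -0.028 without wild-type array 2. Tead1, a TEAD factor, had a difference of 0.16 ± 0.11, which was 0.014 without wild-type array 2.

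The Notch pathway lay lower in 11 of 14 genes, beside 7803 of all 15955 genes tested. Its median was -0.043, beside 0.0017 over all genes. At an unadjusted limma p under 0.05 it had 0 genes, beside 6.74% of all genes. The median ran from -0.056 to -0.027 without each array in turn. In 5 the knockout arrays were both below the wild-type arrays, and in 0 both above, beside 17.4% and 19.4% of all genes. Heyl and Notch2, among these 5, were dim, with wild-type means of 6.17 and 5.88. Maml1, a coactivator, was -0.10 ± 0.050, Heyl, a Notch target of mural cells, -0.070 ± 0.041, and Notch4, an endothelial receptor, 0.16 ± 0.10. Heyl turned to 0.14 with the local background subtracted. Maml1 was -0.062 without knockout array 1, Heyl -0.046 without wild-type array 2, and Notch4 0.057 without knockout array 2 and 0.059 without wild-type array 1. In the PDGF pathway 6 of 10 genes were above 0, with a median of 0.031, and Ptpn11, Plcg1 and Grb2, which carry the receptor's signal, were 0.11 ± 0.040, 0.077 ± 0.061 and 0.054 ± 0.046. Plcg1 was 0.0051 without knockout array 2, and Grb2 was 0.012 without wild-type array 2. In the TGF-beta pathway 5 of 13 were above 0, with Smad2 at -0.16 ± 0.068, Eng at 0.13 ± 0.066 and Tgfbr3 at 0.081 ± 0.045. Without wild-type array 2 Smad2 was -0.086 and Eng 0.064, and without knockout array 2 Tgfbr3 was 0.047. Of 12 vasoactive receptors and channels 5 were above 0, with Htr2a, a serotonin receptor, at 0.11 ± 0.043, Ednrb, an endothelin receptor, at -0.16 ± 0.075 and Tbxa2r, the thromboxane receptor, at -0.087 ± 0.042. Without wild-type array 1 Ednrb was -0.087 and Tbxa2r -0.057. The medians of the TGF-beta list and of the receptors and channels, -0.011 and -0.013, turned to 0.024 and 0.014 without wild-type array 1. In the latter 3 lists no gene had an unadjusted limma p under 0.05.

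Cells that border the mural cells were read by their own markers. Of 10 endothelial markers 4 were above 0, and their summed normalized intensities were 2983 and 3160 units for wild type against 2994 and 3265 for the knockout. Egfl7, a secreted endothelial protein, had a difference of -0.27 ± 0.053 with an unadjusted limma p of 0.00493 and turned to 0.16 with the local background subtracted. Of 10 fibroblast markers 5 were above 0, with sums of 10123 and 8935 units for wild type against 8836 and 8023 for the knockout. Gsn and Dcn made up 76.9% to 83.3% of these sums. Dcn, decorin, had a difference of -0.47 ± 0.13 with an unadjusted limma p of 0.0172, and the difference was -0.29 without knockout array 2. Col3a1, a collagen chain, had both knockout arrays above both wild-type arrays, at 9.01, 8.11, 9.02 and 9.07, a difference of 0.49 ± 0.30. The sums over the 10 members were 953 and 893 units for wild type against 961 and 938 for the knockout, so that their ranges crossed. All these sums include the offset of 50 units for each gene. It makes up far more of the sum of the dim members than of the fibroblast sum, so the lists are not compared by their sums. The part of these cell types in the members' values was not tested.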

How the data were processed

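The deposited scanner files give, per the file headers, the median intensity of each of 27456 spots and of its local background at 635 nm. The sources used here do not say how scans at different gains were combined. The table of processed intensity that the authors deposited followed the spot medians by a straight line per array, with residuals of at most 0.0523 units, a constant of 78.4 to 87.7 units subtracted and a median of 25. Its 3714 to 4955 empty cells per array were set to its lowest value when it served as an alternative. Gene symbols came from the platform annotation of 23473 gene probes, of which 20690 had 1 symbol, 0 several and 2783 none.

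Spot medians were corrected with normexp (offset 50, fitted on all spots) in limma 3.58.1 under R 4.3.3, control spots were left out, and log2 values were quantile normalized. A probe was kept when detected on at least 2 arrays, and the brightest kept probe stood for a gene. The comparison used lmFit and eBayes on all 4 arrays, no covariates, with p-values two-sided and adjusted by Benjamini-Hochberg over 15955 genes. The code was tested on simulated data. Summed intensities are sums of 2 to the power of the normalized log2 values, and so include the offset of 50 units for each gene. Named were all members, up to 3 genes of each list by smallest p, and Acta2, Rgs5, Des, Trpc6. Hbb-bt, Hba-a2, Col3a1, Gsn, Actc1, Myl2, Tnnt2 and the relatives by gene family were named after their values were seen. Members and lists were chosen with earlier results of these data known. Promoter windows are RefSeq's. The alternatives changed background correction, normalization, filter, source of values, probe choice, variance model, replicate term and arrays included; list medians without each array were added after seeing the data.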

Additional observations from a re-analysis of the deposited data

How the results depend on the processing

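The count of genes past the limma test was 0 in the reported fit and under every alternative that kept all arrays, and 0 to 1 without each array in turn. The 1 gene, Hba-a2, came without wild-type array 2 and is no member. That fit sets wild-type array 1 alone against the 2 knockout arrays, which alone give the spread of the gene. Hba-a2 was at 8.73 on wild-type array 1, 10.17 on wild-type array 2 and 10.45 and 10.50 on the knockout arrays. The count at an unadjusted limma p under 0.05, 1076 as reported, was 2344 without wild-type array 1, 444 without knockout array 2 and 675 on the authors' table. Members at that p numbered 3 of 10 without wild-type array 1 (Cnn1, Smtn and Myocd), where 14.7% of all genes stood there, and 0 without each of the other 3 arrays. No member passed under any of the 15 alternatives. The members' median of 0.015 was 0.051 on the authors' table, and -0.018 to 0.052 without each array in turn. With 75th percentile scaling 69.8% of all genes were above 0 in place of 51.1%, their median was 0.039 and 8 of 10 members were above 0. Myh11, Tagln and Lmod1 then turned to 0.026, 0.0013 and 0.020, still below that median. With the local background subtracted the differences turned to 0.013 for Myh11, 0.039 for Tagln, 0.026 for Lmod1, -0.42 for Pdgfrb, -0.34 for Acta2, 0.078 for Ppp1r14a, -0.31 for Myl6, -0.063 for Tead1, 0.14 for Heyl, -0.091 for Plcg1, -0.00027 for Grb2, -0.076 for Htr2a, 0.16 for Egfl7, -0.047 for Upk3b and 0.69 for Des. On the authors' table Tagln turned to 0.024. Without each array in turn the sign also turned within -0.019 to 0.013 for Myh11, -0.059 to 0.057 for Tagln, -0.032 to 0.50 for Smtn, -0.038 to 0.11 for Pdgfrb, -0.095 to 0.028 for Lmod1 and -0.25 to 0.068 for Des. The cause was not tested. Cnn1, Mylk, Myocd, Notch3 and Cspg4 kept their sign under all 15. Changes of filter, probe choice, variance model and replicate term could not alter these differences, each gene having 1 probe. Leaving out 1 array could not turn the sign of Mylk, Myocd, Notch3 or Cspg4, whose groups do not overlap. The labels number the samples of each genotype 1 and 2 and do not say that a number marks a shared litter or day. With the number as a replicate block limma called 0 genes and had 1148 at an unadjusted p under 0.05 in place of 1076, and deviations from the group means of same-numbered arrays correlated at 0.097 across genes. Signal over background limits Notch3, Lmod1, Cnn1 and the second Smtn probe most.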

Other observations

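Lists of other cell types in the ventricle gave further values. Of 5 atrial marker genes tested 2 were above 0, and Nppa, atrial natriuretic peptide, was at 11.68, 11.64, 11.99 and 12.61 on wild-type arrays 1 and 2 and knockout arrays 1 and 2. Its difference of 0.64 ± 0.21 had an unadjusted limma p of 0.0324 and an adjusted p of 0.727, and was 0.33 without knockout array 2. Of 5 red blood cell genes all 5 were above 0 and without overlap of the groups, beside 19.4% of all genes. Their median was 0.94, which was 0.30 without wild-type array 1. The globin genes among them were all lowest on that array and moved together, so they are not separate observations. Alas2, an enzyme of heme synthesis in red cell precursors, had a difference of 0.13 ± 0.044 with an unadjusted limma p of 0.0372. Their summed intensity was 1215 and 3070 units for wild type against 3670 and 3807 for the knockout. Of 9 leukocyte markers 4 were above 0, and Ly6g, a neutrophil surface protein, had a difference of -0.75 ± 0.16 with an unadjusted limma p of 0.00629. Of 6 epicardial markers 4 were above 0, and Upk3b had a difference of 0.12 ± 0.038 with an unadjusted limma p of 0.0320. Myl3, a ventricular myosin light chain, had a difference of 0.23 ± 0.084 with an unadjusted limma p of 0.0434. This difference was 0.0042 with median scaling, 0.037 with 75th percentile scaling and 0.13 without wild-type array 2. Markers of Schwann cells, adipocytes and skeletal muscle had 3, 4 and 3 genes tested, with medians of 0.022, -0.024 and 0.0052. None of the genes in these lists had a limma adjusted p below 0.727.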
